A study of Homo sapiens with 62 samples.

Results

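The parental cells of 5 human lines were compared at baseline: the melanoma line A2058 (4 libraries), the colorectal cancer line HCT116 (2 libraries), the gastric adenocarcinoma line AGS (1 library), the ovarian cancer line A2780 (2 libraries) and the breast epithelial line MCF10A (2 libraries). These 11 libraries are the ones labelled WT that carry no hRas transgene, out of 62 in the series. The other 51 come from clones of the same lines that lost a chromosome arm, from cells with an integrated TK cassette, and from MCF10A cells with hRas. WT here means the unedited line with its own karyotype. Per the labels, A2058 has gains of 1q, 7p and 8q, HCT116 of 8q, AGS and A2780 of 1q, and MCF10A has an extra 1q. No drug or other treatment was given, and cells were plated 24 h before extraction. Each tumour type stands on 1 line, so a feature of the line and a feature of the tumour type cannot be told apart, and neither can the line and the preparation of its libraries.

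A cell line taken from a tumour often keeps the transcription factors of the tissue it came from. In melanocytes SOX10 and PAX3 act on MITF, which switches on the enzymes of pigment synthesis. In the gut, CDX2 and HNF4A maintain intestinal identity, GATA4, GATA6 and FOXA2 act in the stomach and other endoderm, PAX8 marks Müllerian epithelium, and TP63 sets up the basal layer of stratified and mammary epithelium together with the basal keratins. LIN28A and IGF2BP1 are RNA-binding proteins of embryonic cells that most adult tissues lack.

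Gene levels are given as CPM, the counts of a gene per 1e6 counts of its library, with edgeR's TMM scaling. A gene was tested in each line against the mean of the other 4 lines with edgeR's quasi-likelihood test, and was called at a Benjamini-Hochberg adjusted p under 0.05. A gene is said to mark a line when it differed from each of the other 4 lines singly and in the same direction. Each difference needed an adjusted p under 0.05 and a log2 fold change of at least 1. The comparisons share libraries, since each line is also a control of the others. AGS has 1 library, so its spread is assumed to be that of the other lines. The labels name biological replicates in MCF10A alone, so for the other lines the p-values measure only the spread between libraries, which may be technical.

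The libraries held 19414614 to 30984036 counts, and 98.15% to 99.11% of them fell on the 45342 genes that the tables of all 5 lines share. Of these genes 19268 had enough counts to be tested. The HCT116 libraries stood apart. They had a count on 15517 and 17324 of the joined genes, against 18646 to 21167 in the other libraries, and 147 and 460 genes with exactly 1 count, against 1178 to 2281. Replicate libraries had a Spearman correlation of 0.966 in HCT116 and of 0.989 to 0.992 in the other lines. The median log2 fold change of HCT116 against the other lines ran from -1.85 in the genes of lowest GC content to 1.3 in those of highest, when the 14305 tested genes with a mean of at least 1 CPM were split into 5 equal bins. In the other 4 lines it ran from between 0.31 and 0.71 down to between -0.43 and -0.16. By length, HCT116 went from 0.76 in the shortest genes to -1.43 in the longest, and A2780, whose tables use another annotation, from -0.44 to 0.59. The other 3 lines went from between -0.06 and 0.12 to between 0.31 and 0.45. HCT116 counts of marking genes and of listed genes are therefore also given after each library was corrected for GC content and gene length, a step chosen after these trends were seen.

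**Figure D1:**
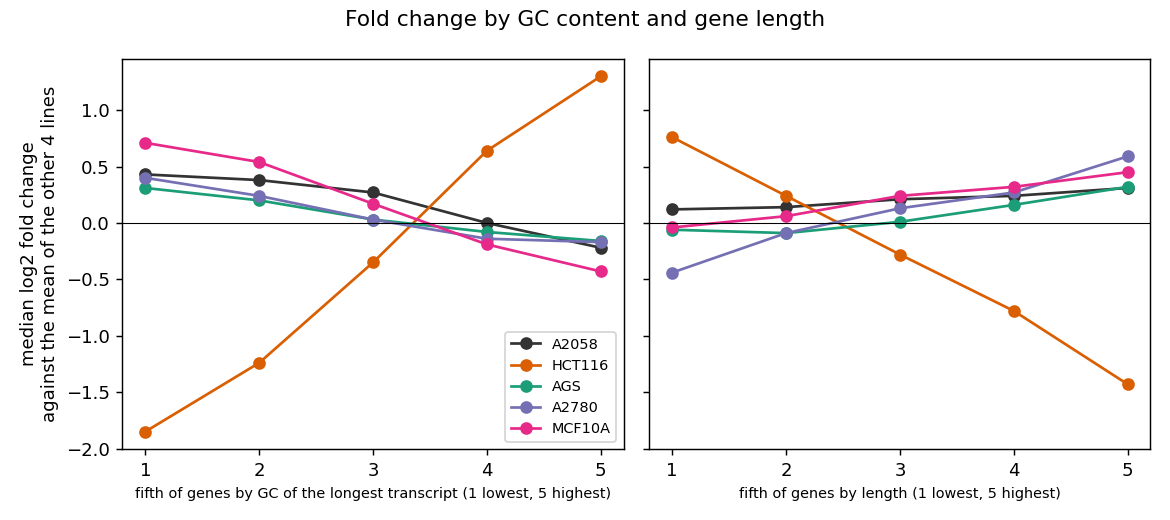
Median log2 fold change of each line against the mean of the other 4 lines, for the 14305 tested genes with a mean of at least 1 CPM, split into 5 equal bins by GC content and by length; each line on the plot is a cell line. HCT116 rose from -1.85 to 1.3 over the GC bins, while the other 4 lines fell from between 0.31 and 0.71 to between -0.43 and -0.16.

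The 5 lines differed in a large share of the genes tested. The test against the mean of the other lines called 10380 genes in A2058 (53.9%), 12715 in HCT116 (66%), 9094 in AGS (47.2%), 10975 in A2780 (57%) and 9327 in MCF10A (48.4%). The gene groups below are read against these shares. Fewer genes marked a line. Higher marking genes numbered 1042 in A2058 (5.41%), 1634 in HCT116 (8.48%), 1060 in AGS (5.5%), 1219 in A2780 (6.33%) and 534 in MCF10A (2.77%). Lower marking genes numbered 345 in A2058 (1.79%), 2879 in HCT116 (14.9%), 825 in AGS (4.28%), 1153 in A2780 (5.98%) and 387 in MCF10A (2.01%). In HCT116 the balance turned with the scaling: 36.2% of its marking genes were higher as reported, 48.5% with RLE size factors and 54.8% after the GC and length correction, which left 1424 higher and 1175 lower. In A2058 68.7% of the called genes were higher as reported and 57.7% after correction, and in MCF10A 67% and, with DESeq2, 55.9%. Of the corrected 2599 genes of HCT116, 1489 were among the 4513 marked without correction. Without the HCT116 libraries, which leaves fewer lines to differ from, 1988 genes marked A2058, 3072 AGS, 3511 A2780 and 1536 MCF10A in either direction. Without the AGS library 1730 genes marked MCF10A.

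**Figure D2:**
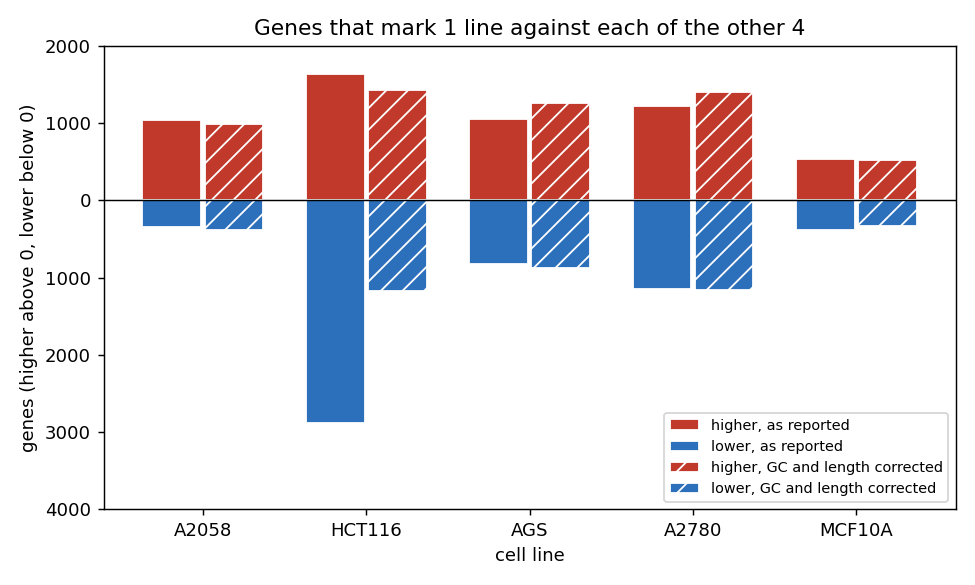
Number of genes marking each line, with higher genes above 0 and lower genes below 0; solid bars are as reported and hatched bars are after the GC and length correction. The lower bar of HCT116 shrank from 2879 to 1175 genes under the correction, and the 534 higher genes of MCF10A were the fewest higher genes of the 5 lines.

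Taken pair by pair, A2058 and MCF10A were the nearest by the number of genes that differed at least by a log2 fold of 1, with 5946 genes (30.9%) and a Spearman correlation of 0.847 over genes. AGS and MCF10A followed with 6377 genes (33.1%) and 0.829. HCT116 and A2780 differed in 11411 genes (59.2%), the most of the 10 pairs. Every pair with HCT116 differed in 10146 to 11411 genes, and pairs without it in 5946 to 8115. The GC and length trends of HCT116 move with its 4 pairs. After the GC and length correction none of the 10 pair counts was weaker or stronger by the rule set for counts. The corrected pair counts are not given here, and the part of the trends in each was not tested.

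A2058 carried the melanocyte program. All 20 tested genes of the melanocyte list were called higher in A2058 (against 37% of all genes), 16 of them marked the line, and their median log2 fold change was 8.8, beside 0.22 over all genes tested. The summed level of the list was 3376 to 5032 CPM in the 4 A2058 libraries and 83.2 to 253 CPM in every other library. With the GC and length correction 15 genes marked A2058 and the median was 8.59. RAB38, which helps carry pigment enzymes to melanosomes, no longer marked it.

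The regulators of the lineage were among the genes that marked A2058. SOX10, the neural crest factor upstream of MITF (chromosome 22, 37970686 to 37987422, GRCh38), was at 609, 633, 590 and 451 CPM in A2058 and at most 0.591 CPM in any other library. Its log2 fold change was 12.86 (SE 0.335, adjusted p = 3.79e-10 by edgeR's quasi-likelihood test). SOX10 overlaps POLR2F on the other strand, and whether counting used the strand is not given in the sources used here. MITF, the master regulator of pigment cells, was at 203, 172, 153 and 132 CPM, against 13.8 and 18.9 in MCF10A and 6.87 in AGS, for a log2 fold change of 7.34 with SE 0.247 (adjusted p = 1.42e-09). It was 10.1-fold higher than in MCF10A, the next line. PAX3 was at 35.9, 32.7, 30.7 and 30.4 CPM and at most 0.136 CPM elsewhere.

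Several pigment genes are shown here with the bases before their RefSeq start sites, because the E-box CATGTG is a known binding sequence of MITF and these genes marked A2058. Those shown were the highest in A2058 among the genes with a match, so each holds one by choice. CSPG4 and MITF, at means of 470 and 165 CPM, were higher than TYR but had no match. Coordinates are RefSeq GRCh38.p14, each sequence is the 250 bases before the start read 5′ to 3′ on the gene's strand, and capitals mark CATGTG or its reverse complement CACATG.
DCT, chr13:94479683-94479932, minus strand: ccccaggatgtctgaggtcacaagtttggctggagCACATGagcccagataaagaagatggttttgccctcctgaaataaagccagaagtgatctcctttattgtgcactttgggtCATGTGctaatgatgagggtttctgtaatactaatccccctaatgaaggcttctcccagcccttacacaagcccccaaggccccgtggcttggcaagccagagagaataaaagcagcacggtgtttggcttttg
TYR, chr11:89177625-89177874, plus strand: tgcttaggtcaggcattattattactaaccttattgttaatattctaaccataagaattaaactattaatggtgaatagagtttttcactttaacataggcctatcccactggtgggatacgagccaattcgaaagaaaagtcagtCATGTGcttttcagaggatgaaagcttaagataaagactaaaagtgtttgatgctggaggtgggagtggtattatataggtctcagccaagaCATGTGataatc
EDNRB, chr13:77919683-77919932, minus strand: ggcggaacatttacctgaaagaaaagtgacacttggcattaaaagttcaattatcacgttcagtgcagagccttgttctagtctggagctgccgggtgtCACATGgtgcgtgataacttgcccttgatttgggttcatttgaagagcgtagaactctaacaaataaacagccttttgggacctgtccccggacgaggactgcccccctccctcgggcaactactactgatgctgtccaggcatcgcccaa
SLC24A5, chr15:48120740-48120989, plus strand: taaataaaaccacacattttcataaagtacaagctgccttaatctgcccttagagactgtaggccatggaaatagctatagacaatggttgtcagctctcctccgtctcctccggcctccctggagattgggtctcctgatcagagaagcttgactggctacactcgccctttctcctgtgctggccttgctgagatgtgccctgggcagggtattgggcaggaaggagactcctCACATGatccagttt

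In DCT the matches began 215 and 134 bases before the start, in TYR 104 and 12, in EDNRB 151 and in SLC24A5 15. DCT and EDNRB each have a further RefSeq promoter, which held no match. Of the 16 melanocyte genes that marked A2058, 11 had an entry in the promoter sequences used here, and 6 of these (54.5%) held CATGTG on either strand: TYR, DCT, GPR143, TRPM1, SLC24A5 and EDNRB. Among all genes with an entry 11.5% of 27305 did, and 9.42% of 35116 promoters. The related E-box CACGTG was in 0 of the 11 (7.73% of all genes), and the AP-1 sequence TGANTCA in 0 of the 11 (8.06% of all genes). The 2 E-boxes were counted separately, and no stretch can match both in full. A match is a description of these letters and not a measured site.

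The genes behind these promoters were at the following levels. DCT, the dopachrome tautomerase of pigment synthesis (chromosome 13, 94436808 to 94479682), was at 1654, 1582, 803 and 1551 CPM in A2058 and at most 0.198 CPM elsewhere. TYR, the tyrosinase that starts the pathway, was at 104, 152, 93.6 and 122 CPM and 0.0455 CPM or less elsewhere, at least 789-fold higher against the floor of 3 counts per library. EDNRB, the endothelin receptor of melanoblasts, was at 118, 134, 120 and 87.0 CPM. SLC24A5, an exchanger of the melanosome that overlaps MYEF2, was at 17.2, 21.2, 14.5 and 18 CPM. In all 4 genes the A2058 libraries lay above every other library.

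PMEL, the fibril protein of melanosomes, was at 1658, 1067, 753 and 1652 CPM in A2058 and 14.9 and 9.88 CPM in HCT116, and overlaps CDK2. S100B, a calcium-binding protein used as a melanoma marker, was at 64.1, 84.3, 97.3 and 60.1 CPM. CSPG4, a melanoma surface proteoglycan, was at 394, 489, 575 and 421 CPM, 6.15-fold above A2780. The remaining 4 genes of the list were called but did not mark A2058, since at least 1 other line came near its level or above it. TYRP1, a tyrosinase-related enzyme, was at 13.3, 19.2, 15.1 and 9.46 CPM in A2058 and at 142 and 141 CPM in A2780. OCA2, a melanosome channel, was at 7.99, 5.59, 3.00 and 4.42 CPM in A2058 and at 15.6 and 16.9 CPM in A2780. MLPH, a motor linker of melanosomes, was at 132 CPM in AGS against 16.8, 19.5, 17.2 and 19 in A2058, and its difference turned to -0.44 without A2780. RAB27A, its partner in melanosome transport, was at 33.4 to 41.7 CPM in A2058 and 22.2 and 22.4 CPM in MCF10A. TYRP1 and OCA2 both marked A2780, where TYR was at 0.0455 and 0 CPM and SOX10 at 0.591 and 0.445 CPM.

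**Figure D3:**
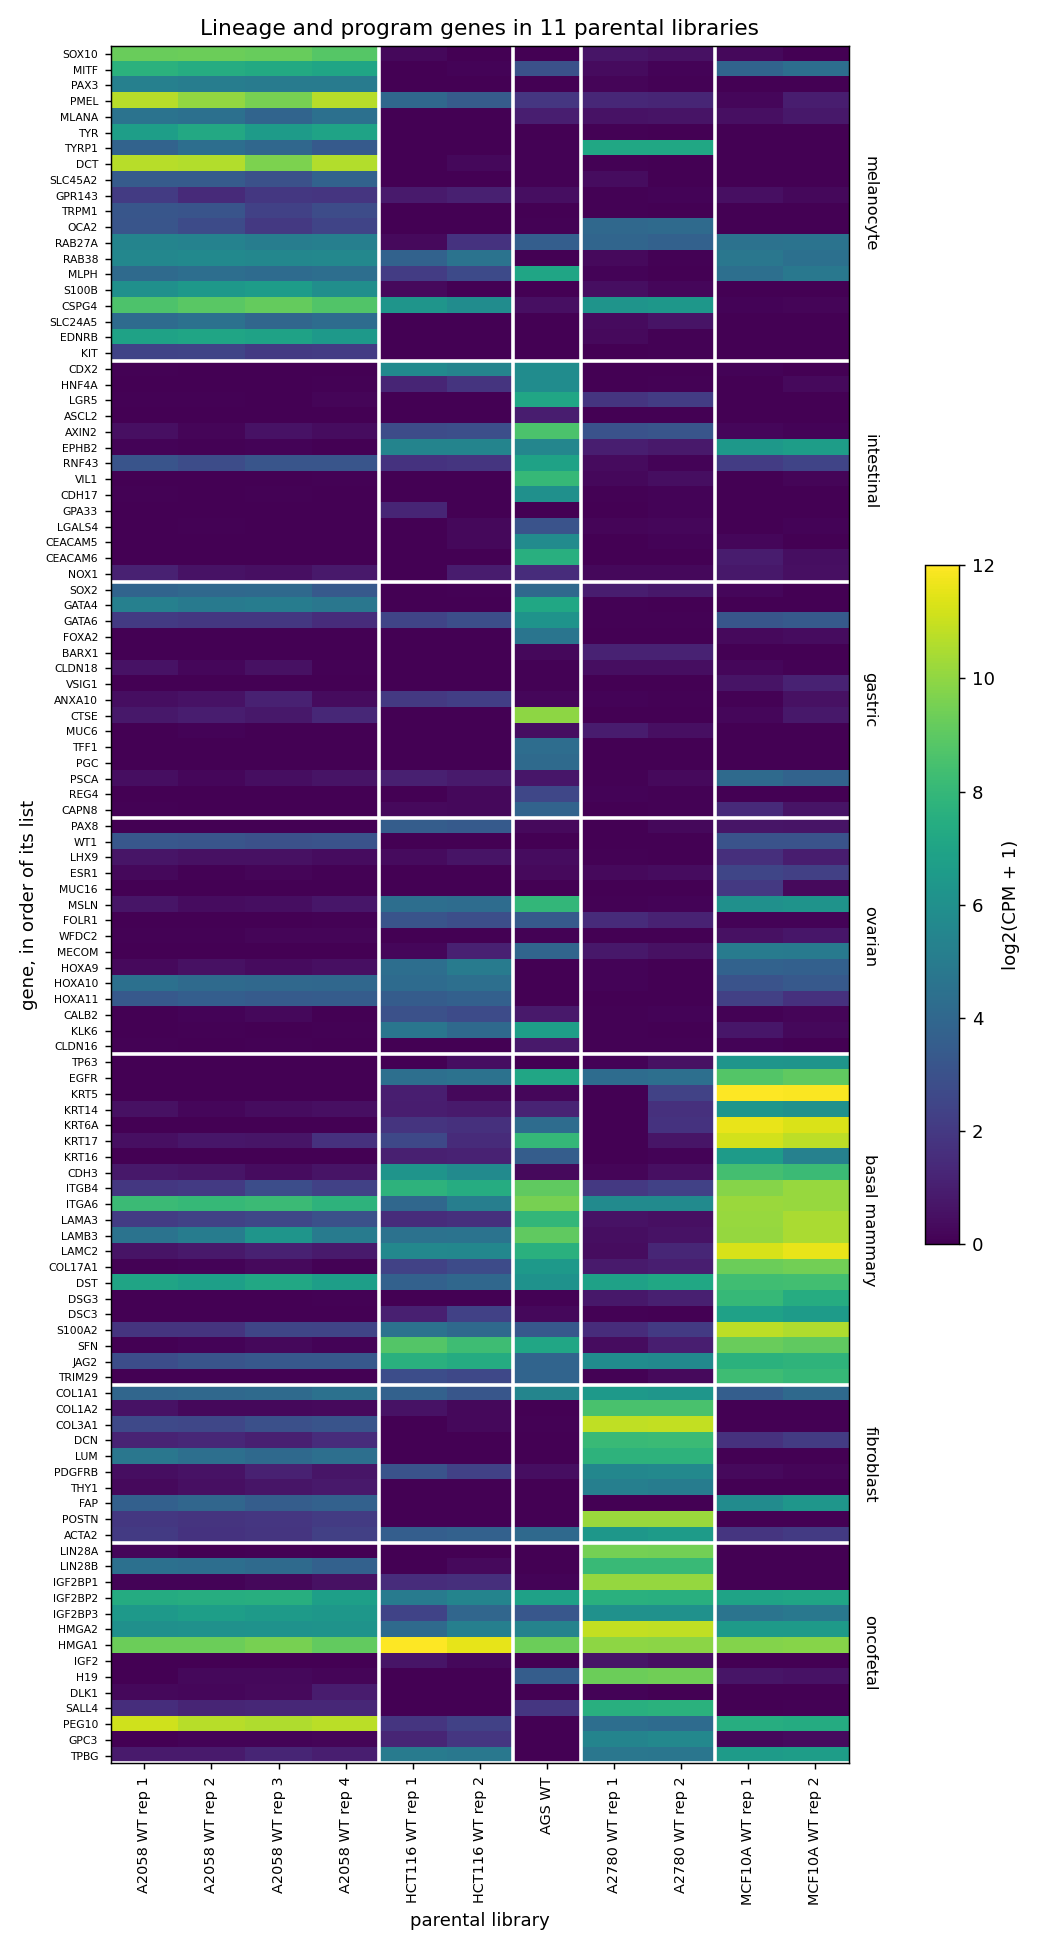
Level of each listed lineage gene (rows) in the 11 parental libraries (columns), as log2(CPM + 1) on a colour scale from 0 to 12. The melanocyte block is filled in A2058 and the basal block in MCF10A. The gastric and intestinal blocks are filled in AGS for most but not all genes, as are the fibroblast and oncofetal blocks in A2780.

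Outside the list, 8 further genes were named upward in A2058. THBS2, a thrombospondin (chromosome 6, 169215780 to 169254044), was at 2148, 2202, 2018 and 2133 CPM and at most 1.09 CPM elsewhere (log2 fold change 13.63, SE 0.232, adjusted p = 8.61e-11). IGFBP5, which binds insulin-like growth factors, was at 1204, 1064, 1269 and 1089 CPM and reached 3.14 CPM in AGS. GPNMB, a melanosome glycoprotein that was not on the list, was at 912, 845, 608 and 917 CPM. For these 3 genes the lowest A2058 library lay far above the highest library of any other line. MMP1, the interstitial collagenase, spread more widely, at 433, 857, 693 and 355 CPM. AEBP1, MOXD1, EPB41L3 and SPP1 completed the group, at 225 to 530 CPM in A2058 and at most 1.09 CPM in any other library.

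Among genes that were low in A2058, EGFR had no count in any of the 4 libraries although it lies on 7p (55019021 to 55211628), an arm the labels give as gained. It was at 20.2 and 21.9 CPM in HCT116, 137 in AGS, 18.2 and 19.7 in A2780 and 438 and 528 in MCF10A, at least 129-fold higher in the lowest other line than the floor in A2058. PITX1, a homeobox factor of hindlimb and epithelia, had 0, 0.0840, 0 and 0 CPM in A2058 and 22.5 to 308 CPM elsewhere. SH2D4A, a signalling adaptor, TNFRSF10D, a decoy receptor for TRAIL, and OPLAH, the oxoprolinase of glutathione turnover, were at most 0.134 CPM in A2058 and at least 17.4 CPM in every other library. ZEB2, a repressor of epithelial genes, was high in A2058 at 151, 149, 137 and 123 CPM and at most 12 CPM elsewhere.

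The intestinal list did not set HCT116 apart, and none of its genes marked the line. Of 15 tested genes of the intestinal list, 6 were higher and 2 lower in HCT116 (32.8% and 33.2% of all genes), and the median was -0.82, beside -0.37 over all genes. Its summed level was 101 and 108 CPM in HCT116, 111 and 130 in MCF10A and 1377 in AGS. Of the 21 listed genes 10 were at 3 counts or fewer in both libraries. The corrected fit gave 6 higher, 2 lower and a median of -0.71. CDX2, the intestinal homeobox factor, was at 51.5 and 39.7 CPM in HCT116, at 56.9 in AGS and at most 0.0707 CPM in the other 3 lines. Its log2 fold change in HCT116 was 8.53 (SE 0.323, adjusted p = 1.87e-08), and 7.7 with the correction. After the GC and length correction CDX2 marked AGS, and so was higher there than in HCT116. HNF4A, the other intestinal factor, was at 1.37 and 2.47 CPM in HCT116 and 55.4 in AGS, and LGR5, the receptor of intestinal stem cells, had no count in HCT116. RNF43, at 2.34 and 2.62 CPM, had a log2 fold change of -1.05 that turned to 0.51 without the AGS library.

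PAX2 and some Müllerian genes were higher in HCT116. PAX2, a factor of kidney and genital tract, was at 26.5 and 20.9 CPM and at most 0.247 CPM elsewhere (log2 fold change 10.74, SE 0.378, adjusted p = 3.01e-07). PAX8, its paralog, was at 10.7 and 9.44 CPM and at most 0.601 CPM elsewhere. On the Müllerian and ovarian list, 8 of 15 tested genes were higher and 1 lower in HCT116 (32.8% and 33.2% of all genes), with a median of 1.89. PAX8, HOXA9 and CALB2 marked it upward and ESR1, with no count, downward. Of the 18 listed genes 8 were at 3 counts or fewer in both HCT116 libraries. In MCF10A 10 of the 15 were higher and 1 lower (32.4% and 16% of all genes), with a median of 3.93. After correction the counts in HCT116 were still 8 and 1, the median was 2.92, and PAX8 and HOXA9 marked it upward. HOXA9 was at 19 and 30.4 CPM in HCT116 and 12.5 and 11.9 in MCF10A, and overlaps HOXA10. KRT19, a simple epithelial keratin, was at 2677 and 1894 CPM in HCT116 against 584 in AGS and at most 0.773 CPM in the others. It marked HCT116 as reported but not after the correction.

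All 10 genes named upward in HCT116 still marked it after the correction, though genes picked for the widest gaps left it little room to change this. GTSF1, a germ cell factor of piRNA silencing, was at 231 and 199 CPM and at most 0.126 CPM elsewhere, at least 1441-fold higher. GAL, the neuropeptide galanin, was at 398 and 282 CPM, and NPW, neuropeptide W, at 774 and 454 CPM. NTSR1, the neurotensin receptor, was at 492 and 341 CPM and at most 3.78 CPM elsewhere. CYP24A1, which breaks down vitamin D, was at 185 and 187 CPM and reached 2.16 CPM in MCF10A. EEF1A2, the translation elongation factor of muscle and neurons, was at 2247 and 1507 CPM against 22.1 CPM or less. TRIM72, BHMG1 and TNFRSF18 followed the same pattern, with 51 to 96.2 CPM in HCT116 and at most 0.198 CPM elsewhere.

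Downward, NNT, the mitochondrial transhydrogenase, had no count in either HCT116 library and lay at 59.5 to 398 CPM elsewhere. NNT shares its locus with NNT-AS1. SQLE, squalene epoxidase of cholesterol synthesis, had 0 and 0.0988 CPM in HCT116 and 33.5 to 419 CPM elsewhere. NRIP1, a nuclear receptor corepressor, and SCCPDH had no count in HCT116 and at least 27.5 CPM in every other library. SEC31A, a COPII coat protein that overlaps THAP9-AS1, was at 4.37 and 5.39 CPM against 146 to 255. All 5 were still marked lower after the GC and length correction. NNT, SQLE, NRIP1 and SCCPDH had few or no counts in HCT116, which a scaling cannot raise, so for them the correction could not decide.

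AGS combined gastric with intestinal genes. Of 15 tested gastric genes 11 were higher in AGS and 0 lower (28.7% and 18.5% of all genes), 8 marked it, and the median was 5.46, beside 0.06 over all genes. Of the tested intestinal genes 12 were higher and 1 lower, 10 marked AGS, and the median was 8.36. AGS was a single library, so each level below is 1 value. GATA4, an endodermal zinc finger factor, was at 141 CPM in AGS and 36.2, 28.8, 31.7 and 26.0 in A2058, with 0.0455 CPM or less in the other lines. GATA6 was at 71.3 CPM against 9.68 CPM or less, 7.97-fold above the next line. FOXA2 was at 24.1 CPM and at most 0.321 elsewhere. These 3 factors of endoderm all marked AGS.

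Gastric products followed. CTSE, the aspartic protease cathepsin E (chromosome 1, 206009264 to 206023909), was at 989 CPM in AGS and 1.5 CPM or less elsewhere (log2 fold change 14.03, SE 0.353, adjusted p = 6.29e-09). TFF1, a trefoil peptide of gastric pits, was at 18.3 CPM and PGC, pepsinogen C, at 16.6 CPM, both with no count in the other 10 libraries, at least 123-fold and 112-fold higher. Another 7 listed genes were at 3 counts or fewer in AGS, namely CLDN18, VSIG1, ANXA10, MUC5AC, TFF2, GKN1 and GKN2, which include the surface mucin and the gastrokines.

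Intestinal genes were as prominent in AGS. HNF4A was at 55.4 CPM, 28.9-fold above HCT116. CDH17, liver-intestine cadherin, was at 64.3 CPM and at most 0.0990 elsewhere, at least 433-fold higher. The Wnt target AXIN2 was at 389 CPM, against 7.05 and 8.02 in A2780 and 6.01 and 6.37 in HCT116 (log2 fold change 8.36, SE 0.177, adjusted p = 1.01e-09). LGR5 was at 135 CPM in AGS and 2.64 and 3.37 in A2780, and overlaps TSPAN8. RNF43, a ligase that removes Wnt receptors, was at 120 CPM against 8.00 CPM or less. ASCL2, an intestinal stem cell factor, was at 0.946 CPM and had no count elsewhere. CEACAM5 and CEACAM6, adhesion molecules with near-identical copies, were at 54.4 and 186 CPM.

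The other genes named upward in AGS had varied roles. PLA2G2A, the secreted phospholipase of Paneth cells, was at 1571 CPM and at most 0.0459 CPM elsewhere, at least 10582-fold higher. LYZ, lysozyme, was at 452 CPM and at most 1.03 CPM elsewhere. FPR3, a formyl peptide receptor that overlaps ZNF577, was at 736 CPM, EDAR, the ectodysplasin receptor, at 269 CPM, and C4BPB, a complement regulator, at 130 CPM. VIL1, the microvillus protein villin, was at 260 CPM and overlaps USP37. VTN, TSPAN8 and CST1, which overlap or resemble other genes, were at 586, 186 and 203 CPM. Downward, ANXA5, a phospholipid-binding annexin, was at 0.249 CPM in AGS and 252 to 815 elsewhere. TPM2, a tropomyosin, was at 0.0498 CPM against 152 to 571, and RAB34, a small GTPase of cilia, at 0.0498 against 143 to 737. TUBB6 and PFN2, a tubulin and a profilin, were at 0.349 and 0.149 CPM. TUBB6 and PFN2 were at 127 CPM or more in every other library. Both overlap another gene.

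A2780 did not carry the Müllerian and ovarian list. Of 15 tested genes 1 was higher and 4 lower in A2780 (34.5% and 22.4% of all genes), with a median of -3.51, beside 0.13 over all genes, and 14 of the 18 listed genes were at 3 counts or fewer in both libraries. The summed level of the list was 2.43 and 3.14 CPM in A2780, 34.0 to 39.7 in A2058, 116 and 119 in HCT116, 373 in AGS and 137 and 138 in MCF10A. The ovarian cancer line thus had the lowest summed level of the 5. PAX8 was at 0 and 0.198 CPM in A2780. MSLN, mesothelin, was at 0.0455 and 0.0990 CPM in A2780, 242 in AGS and 64.8 and 70 in MCF10A, and marked A2780 downward. WT1, a factor of mesothelium and ovarian serous tumours, had no count in A2780 and was at 6.89 to 8.53 CPM in A2058 and 7.42 and 7.52 in MCF10A. FOLR1, the folate receptor, was called higher at 1.82 and 1.24 CPM but was lower than in HCT116 and AGS. These markers therefore went against the labelled tissue, and the line is called A2780 here.

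Oncofetal genes were high in A2780. Of 14 tested oncofetal genes 11 were higher and 0 lower (34.5% and 22.4% of all genes), 7 marked the line, and the median was 5.08, beside 0.13 over all genes. Summed over the list, the level was 6109 and 6154 CPM in A2780, 3149 and 4939 in HCT116, 2593 to 3228 in A2058, 1380 and 1422 in MCF10A and 817 in AGS. LIN28A, which blocks maturation of let-7 (chromosome 1, 26410778 to 26429722), was at 709 and 706 CPM and at most 0.147 CPM elsewhere, at least 4736-fold higher (log2 fold change 16.18, SE 0.340, adjusted p = 1.71e-09). LIN28B was at 278 and 280 CPM, with 12.3 to 20.9 in A2058. IGF2BP1, which stabilises fetal messenger RNAs, was at 1114 and 1115 CPM and at most 2.08 CPM elsewhere. HMGA2, a let-7 target and chromatin protein that overlaps RPSAP52, was at 1883 and 1839 CPM, 20-fold above MCF10A. H19, an imprinted fetal RNA, was at 633 and 665 CPM against 10.8 in AGS. SALL4, a stem cell factor, was at 192 and 205 CPM, and GPC3, an oncofetal glypican, at 42.0 and 48.3 CPM. Both A2780 libraries lay within a narrow range and above every other library for all 7.

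Stromal matrix genes were also high in A2780. Of 10 tested genes of the fibroblast list 9 were higher and 0 lower (34.5% and 22.4% of all genes) and 8 marked it, with a median of 11.16, and their summed level was 4130 and 4235 CPM against 24.8 to 101 CPM elsewhere. COL3A1, fibrillar collagen, was at 1844 and 1939 CPM and at most 7.63 elsewhere. POSTN, the matrix protein periostin, was at 1171 and 1159 CPM and at most 3.25. COL1A2 was at 375 and 378 CPM, DCN, decorin, at 278 and 290, and LUM, lumican, at 212 and 212 with 16.4 to 26.0 in A2058. PDGFRB and THY1, surface proteins of stromal cells, were at 45.8 and 49.5 and at 34.8 and 32.3 CPM. FAP, the fibroblast activation protein, had no count. Whether cells of another type were present was not tested. The 2 libraries agreed closely in all of these genes.

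Neural genes moved in both directions in A2780. Of 9 tested neural and neuroendocrine genes 5 were higher and 3 lower (34.5% and 22.4% of all genes). SYP, synaptophysin, at 17.1 and 15.6 CPM, INA, internexin, at 35.4 and 35.8, and CHGA, chromogranin A, at 1.59 and 2.03 marked the line. TUBB3, a neuronal tubulin, marked it downward at 0 and 0.445 CPM against 2.06 CPM or more in every other library, and after the correction so did MAP2, a dendrite protein, at 1.64 and 2.18 CPM. NEFH, a neurofilament subunit, was at 345 and 349 CPM and at most 0.413 elsewhere. Other genes named upward were SPOCK2, a brain and lung proteoglycan, at 1705 and 1672 CPM, the gap junction protein GJA1 at 1534 and 1515, the cyclin CCND2 at 1616 and 1746, and the growth factor HGF at 365 and 382. CCND2 reached 4.60 CPM in MCF10A and the other 3 genes at most 1.38 CPM. Downward, S100A6, S100A10 and S100A16, calcium-binding proteins of the cluster on 1q, were at 0.955 and 0.841, 0.227 and 0.297, and 1.18 and 0.643 CPM in A2780. They lay at 120 to 1912 CPM in every other library, although the labels give 1q as gained in A2780. LTBR, the lymphotoxin receptor, which overlaps SCNN1A, and DUSP4, a MAPK phosphatase, were at 0.591 CPM or less in A2780 and at 137 to 462 CPM elsewhere.

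MCF10A showed the basal mammary program. All 21 tested genes of the basal list were higher in MCF10A (32.4% of all genes), 16 marked it, and the median was 8.05, beside 0.13 over all genes. The correction left all 21 higher and 20 marking. The summed level of the list was 21263 and 22274 CPM in MCF10A and 3003 in AGS, where 12 of the 21 were higher too (28.7% of all genes). TP63, the basal master regulator, was at 76.0 and 73.0 CPM and at most 0.445 CPM elsewhere (log2 fold change 11.11, SE 0.534, adjusted p = 9.86e-07). KRT5, a basal keratin (chromosome 12, 52514575 to 52520687), was at 4707 and 3866 CPM, and at 4.11 CPM in the second A2780 library against 0 in the first. KRT6A and KRT14 showed the same, with 2.38 and 2.18 CPM in the second A2780 library and 0 in the first. The keratins have near copies that can share reads. EGFR was at 438 and 528 CPM, above 137 in AGS. COL17A1, the hemidesmosomal collagen, was at 638 and 692 CPM against 85.1 in AGS, and CDH3, P-cadherin, at 343 and 293 against 71.9 and 53.0 in HCT116. ITGB4 and LAMB3, parts of the hemidesmosome and its basement membrane, were at 914 and 1124 and at 1111 and 1411 CPM, and AGS at 540 and 539. Neither differed from AGS at an adjusted p under 0.05 (0.0560 and 0.0937 by edgeR's quasi-likelihood test), so they did not mark MCF10A, but both did after the correction.

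Luminal mammary genes were split. Of 10 tested, 6 were higher and 3 lower in MCF10A (32.4% and 16% of all genes), with a median of 1.33, and GATA3 and ESR1 marked it. The summed level of the list was 688 and 754 CPM in MCF10A, 5522 and 7599 in HCT116 and 4698 in AGS. GATA3, the luminal factor, was at 16.9 and 14.8 CPM against 3.16 and 2.32 in HCT116. ESR1, the estrogen receptor, was at 4.74 and 3.81 CPM and at most 0.297 elsewhere, and overlaps SYNE1. KRT8 and KRT18, simple keratins that overlap each other, were at 207 and 177 and at 348 and 328 CPM, below HCT116 and AGS. Against the mean of the other lines KRT8 was called lower (-0.72) and KRT18 higher (0.60), but KRT8 was at 0.25 without AGS and 0.43 without HCT116, and KRT18 at -0.26 without A2780. ELF5, a luminal progenitor factor, had no count in MCF10A.

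Other genes named upward in MCF10A had varied roles. DSG3, a desmosomal cadherin, was at 259 and 173 CPM and at most 1.09 elsewhere, BNC1, a keratinocyte zinc finger factor, at 162 and 172, and S100A2 at 1803 and 1504 against 21.7 or less. TGFBI, a matrix protein induced by TGF-beta, was at 3407 and 4851 CPM against 15.1 or less. KRT7, which overlaps KRT86, was at 3844 and 4218 CPM, FAM83A, an EGFR pathway protein, at 219 and 232, and SCNN1G, a sodium channel subunit, at 87.1 and 92.5. CAVIN2, a caveolar coat protein, was at 120 and 130 CPM. In each of these the 2 libraries lay far above the 9 libraries of the other lines. Downward, MTAP, the salvage enzyme next to CDKN2A, had no count in MCF10A and was at 13.5 to 109 CPM elsewhere. NES, the intermediate filament nestin, was at 0.813 and 0.596 CPM against 21.5 to 1962, MDK, the growth factor midkine, at 2.44 and 1.93 against 84.9 to 942, and GAMT, of creatine synthesis, at 1.10 and 0.780 against 33.0 to 402. PLTP, a lipid transfer protein that overlaps CTSA, was at 0.0353 and 0.183 CPM.

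Across the lines, epithelial genes were low in A2058 and A2780 and higher in the other 3. Of 18 tested genes of epithelial junctions and identity, 0 were higher and 14 lower in A2058, 0 and 13 in A2780, 11 and 1 in HCT116, 17 and 1 in AGS and 16 and 0 in MCF10A. In HCT116 the corrected counts were 14 and 0. Over all genes the shares called higher were 37% in A2058, 34.5% in A2780, 32.8% in HCT116, 28.7% in AGS and 32.4% in MCF10A, and the shares called lower 16.9%, 22.4%, 33.2%, 18.5% and 16%. The summed level of the list was 14.7 to 15.9 CPM in A2058, 4.41 and 5.30 in A2780, 729 and 922 in HCT116, 2211 and 2772 in MCF10A and 4756 in AGS. CDH1, E-cadherin, was at 320 and 276 CPM in MCF10A, 16.1 in AGS, 6.01 and 3.16 in HCT116 and at most 0.343 in A2058 and A2780. EPCAM, an epithelial adhesion molecule, was at 684 CPM in AGS, 117 and 99.5 in MCF10A and 58.7 and 119 in HCT116, with both MCF10A libraries inside the range of HCT116. GRHL2, a factor that holds epithelial identity, was at 70.1 CPM in AGS and 67.0 and 69.5 in MCF10A, with AGS just above both MCF10A libraries, and at 0.624 and 1.53 in HCT116.

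On the mesenchymal side, of 16 tested genes 11 were higher and 1 lower in A2058, 13 and 3 in A2780, 8 and 4 in MCF10A, 4 and 7 in AGS and 4 and 6 in HCT116, with and without the correction for HCT116. The counts in HCT116 lay near its shares over all genes, which were 32.8% higher and 33.2% lower, while MCF10A stood at 32.4% and 16%, A2058 at 37% and 16.9%, A2780 at 34.5% and 22.4% and AGS at 28.7% and 18.5%. The summed level of this list was 6557 to 8470 CPM in A2058, 1827 and 1882 in A2780, 1455 and 2741 in MCF10A, 364 in AGS and 270 and 367 in HCT116, so the libraries of MCF10A lay on either side of those of A2780. VIM, vimentin, was at 1369, 1382, 1328 and 1130 CPM in A2058, 936 and 878 in A2780, 67.6 and 126 in MCF10A, 31.2 and 31.7 in HCT116 and 1.24 in AGS. ZEB1, a repressor of CDH1, was at 51.7 and 51.9 CPM in A2780, 28.2, 34.5, 32.1 and 24.3 in A2058 and at most 5.11 in the others. CDH2, N-cadherin, was at 197, 219, 287 and 177 CPM in A2058, 74.7 and 71.9 in A2780 and 11.3 and 16.6 in MCF10A. SNAI2, another repressor of the family, was instead highest in MCF10A at 95 and 99.6 CPM, with no count in AGS. MCF10A thus held high CDH1 together with the highest SNAI2.

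**Figure D4:**
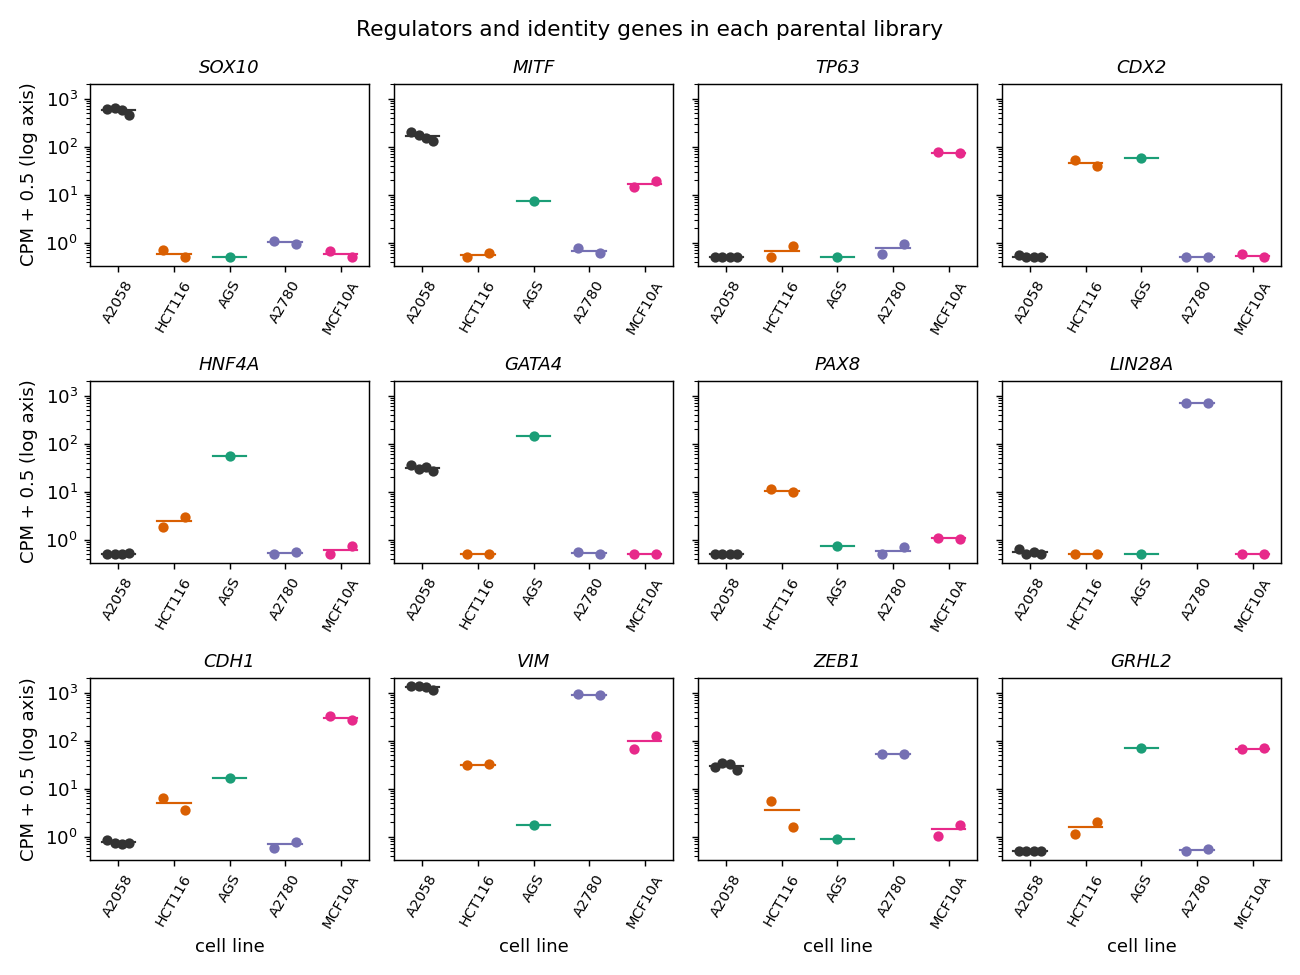
Level of 12 lineage and epithelial or mesenchymal genes in the 11 libraries, as CPM + 0.5 on a log axis; points are libraries and short lines are means of a cell line. SOX10 is high in A2058 alone, TP63 in MCF10A alone and LIN28A in A2780 alone, while CDX2 is shared by HCT116 and AGS.

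Genes of tumour suppression and repair that are often deleted or silenced were also counted by line. Of 24 tested, 11 were higher and 6 lower in A2058, 10 and 8 in HCT116, 9 and 4 in AGS, 9 and 6 in A2780 and 13 and 3 in MCF10A. In HCT116 the corrected counts were 11 and 7. Over all genes the shares called higher were 37%, 32.8%, 28.7%, 34.5% and 32.4% and lower 16.9%, 33.2%, 18.5%, 22.4% and 16%, in the same order of lines. CDKN2A, which encodes p16 and p14ARF, had a mean of 334 CPM in HCT116, 96.6 in A2058 and 3.61 in A2780, and no count in AGS and MCF10A. Its neighbours at 9p split: in AGS CDKN2B was at 82.9 and MTAP at 58.2 CPM, while MCF10A had no count for CDKN2A, CDKN2B or MTAP. MGMT, which repairs alkylated guanine, was at 0.282 CPM in A2058 and 8.08 to 35.7 in the other lines. TFPI2 and SFRP1, an inhibitor of proteases and a Wnt antagonist, had no count in HCT116 or AGS, with means of 214 and 172 CPM in A2058 and 203 and 689 in MCF10A. CDKN1A, the gene of the cell cycle inhibitor p21, had means of 679 CPM in HCT116 and 931 in AGS and 16.9 in A2058 and 32.8 in A2780. Low counts here do not separate a deletion from silencing.

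Markers of blood and vessel cells were low, with a few exceptions. Of 11 leukocyte genes 4 had enough counts to be tested, and PTPRC, CD45, was at 0 to 0.343 CPM in all 11 libraries. LYZ, at 452 CPM in AGS, is also made by gastric epithelium, and CD14 and CSF1R reached 6.84 and 7.71 CPM in MCF10A. Of 7 endothelial genes 6 were tested. KDR reached 2.08 CPM in A2058, VWF 2.24 CPM and EGFL7 169 CPM in HCT116.

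Some genes lacked counts in 1 line alone. With 3 counts or fewer in every library of the line and at least 5 CPM in each other line, there were 10 such genes in A2058, 30 in HCT116, 105 in AGS, 53 in A2780 and 8 in MCF10A. A single AGS library makes this rule easier to meet there. The HCT116 libraries held few genes with exactly 1 count (147 and 460), so a lack of counts there cannot be told apart from a trait of its libraries. All other libraries of the same line also had 3 counts or fewer for 5, 25, 65, 36 and 4 of these genes, in the same order. In A2058 the most expressed elsewhere were EGFR, PITX1, PKP2, a desmosomal plakophilin, SH2D4A and TNFRSF10D. In HCT116 they were SQLE, NNT, TLE4, a Groucho corepressor, ITPKB, an inositol kinase, and SCCPDH, and SQLE, NNT, TLE4 and ITPKB also had no count in the 4 other HCT116 libraries. In AGS they were TPM2, CAV1, caveolin, RAB34, DCBLD2 and SCRN1, and CAV1 averaged 1242 CPM in MCF10A. In A2780 they were the pseudogene RPL9P9, BAMBI, a decoy receptor for TGF-beta ligands, TINAGL1, BACE2, a protease, and PLPP2. The A2780 tables use another annotation, and RPL9P9 is a near copy of a ribosomal protein gene, so its value is uncertain. In MCF10A they were MTAP, ARMCX3, SHC2, SYNGR1 and DCP1B.

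Gene levels along the gained arms were raised in part. The arm level is the median log2 fold change of tested genes on the arm minus that of all other autosomal arms. In A2058 it was 0.52 on 7p (318 genes), 0.39 on 8q (433 genes) and 0.11 on 1q (828 genes), the last at 0.06 after correction. It was 0.06 on 8q in HCT116 as reported, 0.35 after correction and -0.01 with a filter at a mean of 1 CPM. On 1q it was 0.17 in AGS, -0.00 in A2780 and 0.28 in MCF10A, the last falling to 0.15 after correction. The controls of each line include lines with gains of the same arm, 1q above all, so these are differences between lines and not copy numbers. Arms that no label mentions moved as far: 5p was at 0.86 in A2058 (0.85 corrected), 19q at 0.98 in AGS (1.12 corrected), 18q at -0.91 in AGS (-1.19 corrected) and 18p at 0.67 in A2780 (0.53 corrected). In HCT116 19p went from 1.5 to 0.10 with the correction and 13q from -1.57 to -0.61.

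The derived libraries of each line, which took no part in choosing the marking genes, were then compared for the same genes. They come from the same line and are not independent lines, so this is a description. HCT116 derived libraries had a count on 15409 to 17662 joined genes, against 18027 or more in those of the other lines. Genes kept in HCT116 thus cannot be told apart from a trait of its libraries. A higher marking gene was kept when every derived library of its line lay above every derived library of the other 4 lines. This held for 435 of 1042 genes in A2058 (41.7%), 1112 of 1634 in HCT116 (68.1%), 749 of 1060 in AGS (70.7%), 957 of 1219 in A2780 (78.5%) and 243 of 534 in MCF10A (45.5%). Lower marking genes, by the reverse rule, were kept at 33.3% in A2058, 75.4% in HCT116, 57.6% in AGS, 63.1% in A2780 and 23.0% in MCF10A. Lines differ in their number of derived libraries, from 4 in HCT116 to 18 in MCF10A, and a larger number makes the rule stricter. By group, the share of higher genes kept was 56.5% in A2058 1q-loss libraries, 68.3% in 7p-loss and 78.7% in 8q-loss libraries, 71.7% in AGS 1q-loss and 91.8% in AGS TK+, 80.6% in A2780 1q-loss and 87.0% in A2780 TK+. In MCF10A it was 65.0% with 1q loss (8 libraries), 76.2% with hRas (2) and 47.9% with both (8). Groups differ in their number of libraries too, from 2 to 8. At 2 libraries each, A2058 clones kept 68.3% and 58.5% with 1q loss and 75.8% to 86.5% otherwise. A2780 1q-loss clones kept 85.9%, 86.0% and 87.8%. MCF10A clones kept 74.7% to 76.2% with 1q loss and 73.2%, 57.7%, 77.2% and 70.6% with both. Single AGS libraries kept 79.5% to 91.4% with 1q loss and 92.7% and 94.9% in TK+. Among the genes named upward all were kept except SPP1, VTN and POSTN. SPP1 fell to 88.9 CPM in A2058 derived libraries and reached 121 CPM in AGS 1q-loss libraries. VTN fell to 0.419 CPM in AGS derived libraries, and POSTN to 48.9 CPM in those of A2780, while it reached 121 CPM in MCF10A hRas 1q-loss libraries.

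**Figure D5:**
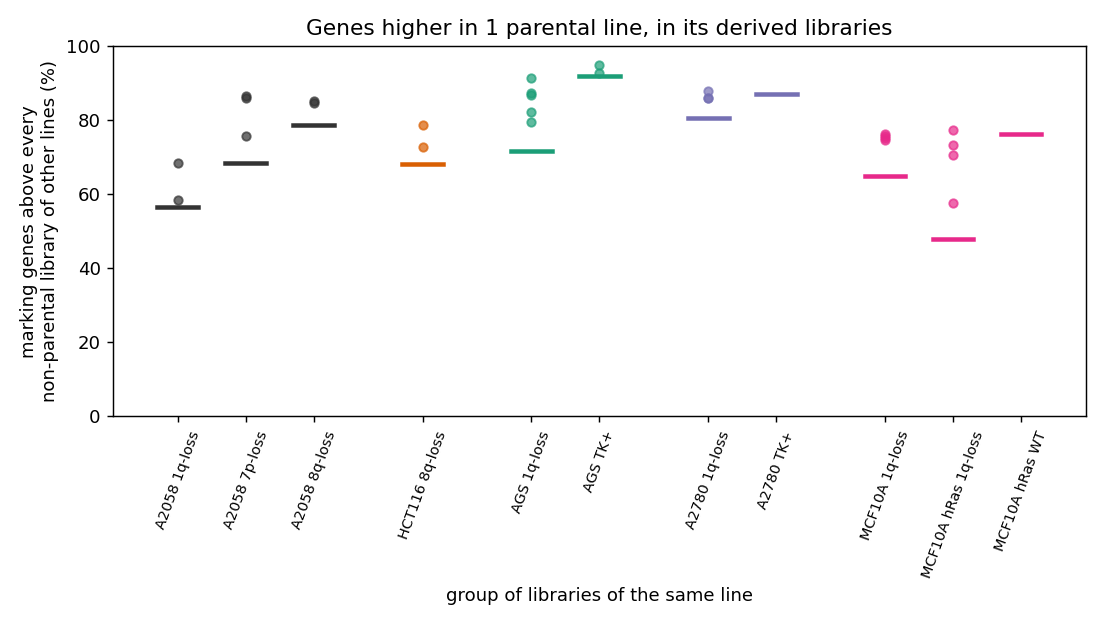
Percent of genes marking each line upward that stayed above every derived library of the other lines, with bars for groups of derived libraries and points for single clones. A2058 1q-loss at 56.5% and MCF10A hRas 1q-loss at 47.9% were the lowest groups. Groups hold from 2 to 8 libraries, and a larger number makes the rule stricter.

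Lineage genes were also read in the derived groups. In CPM by total count, SOX10 was at 24.6, 54.3 and 81.3 (lowest, median and highest library) in A2058 1q-loss libraries against 479, 630 and 668 in A2058 WT, 593, 633 and 704 with 7p loss and 420, 566 and 703 with 8q loss. MITF was at 8.22, 18.2 and 23.9 with 1q loss and 141, 171 and 214 in WT. The 1q-loss libraries thus lay below all WT libraries for both factors. DCT was at 5.61, 38.7 and 119 CPM there. TYR was at 98.1, 120 and 160 CPM in WT, 0, 0.428 and 0.862 with 1q loss, 0.0993, 3.06 and 1048 with 7p loss and 2.10, 4.61 and 6.76 with 8q loss. MLANA, a melanosome protein that overlaps KIAA2026, was at 14.1, 21.9 and 24.2 CPM in WT and at most 4.97 CPM in every derived A2058 library. Lower TYR and MLANA were thus not limited to 1q loss. In MCF10A, TP63 was at 0.517, 51.9 and 69.5 CPM with hRas and 1q loss, and at 58.1, 74.9 and 78.4 with 1q loss alone. KRT5 was at 552, 3004 and 4115 CPM with both. In AGS 1q-loss libraries CTSE was at 10.5, 345 and 1061 CPM, and GATA4 at 22.8, 35.5 and 66.8 against 149 in WT. CDX2 stayed between 34.3 and 39.3 CPM in HCT116 8q-loss libraries. These group differences were not tested here.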

How the data were processed

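Messenger RNA was selected with poly-T beads and copied with random hexamers, per the labels' protocols. The authors deposited 1 table of raw read counts per gene for each library, with Ensembl IDs. The submitters' processing notes name HISAT2 2.0.5, featureCounts 1.5.0-p3 and hg38, with no role or order, and the strand setting is not given in the sources used here. The A2780 tables use GRCh37 coordinates and another annotation (48162 genes, against 58735 in the others), so genes were joined by Ensembl ID, and 27414 of the 45342 joined genes had a length within 10% in both. Coordinates printed are GRCh38.

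Genes were kept by filterByExpr of edgeR 4.0.16 (minimum count 10, minimum total 15), scaled by TMM and fitted over all 11 libraries with 1 coefficient per line (R 4.3.3, limma 3.58.1, residual degrees of freedom 6). Each line was tested against the mean of the other 4 and against each singly with the quasi-likelihood F-test, two-sided, with Benjamini-Hochberg adjustment over 19268 genes. The fit was tested on simulated data. DESeq2 1.42.0 was an alternative. Tables and figures were made with Python 3.11.15, pandas 2.3.3, numpy 2.4.6 and matplotlib 3.10.9. The GC and length correction used 20 bins. PCR duplicates cannot be told from separate molecules in these counts.

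Named genes were, per line, the 10 protein-coding marking genes with the widest gap upward and the 5 with the widest gap downward between the line's libraries and all others on log2(CPM + 1), with a mean of at least 10 CPM in the higher lines, together with listed marker genes and, per line, the 5 genes without counts that were highest elsewhere. The members and lists were chosen with earlier results of these data known. The promoters were taken from RefSeq. Values of some listed or rule-named genes are not reported here, though counts over lists and over all genes include them.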

Additional observations from a re-analysis of the deposited data

Results flagged for a closer look

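DCT in A2058 was at 803 CPM in replicate 3 and at 1551 to 1654 CPM in the other 3 libraries. The gap between replicate 3 and the nearest library was 0.878 of the whole range, above Dixon's critical value of 0.829 for 4 libraries. It was 1 of 29 values examined, and chance passes about 1 in 20 such groups. All 4 libraries lay above every library of the other lines.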

How the results depend on the processing

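Of 3126 values for 140 named genes under the alternatives, 3065 kept their direction and side of the threshold, 49 fell short of it and 12 changed sign. These genes had been named for their wide gaps or were listed genes already called, which favours a high share kept. Without A2780, MLPH in A2058 was at -0.44 and KRT18 in MCF10A at -0.26. With the replicate block and the same 8 libraries without the block, RNF43 in HCT116 was at 0.55 and 0.54, KRT8 in MCF10A at 0.32 and 0.32 (0.43 without HCT116) and XBP1 in MCF10A at 0.04 and 0.03. Leaving out each library in turn, they ranged from -1.18 to 0.51, from -0.84 to 0.25 and from -0.44 to 0.03, with the other sign without AGS alone. Each setting that changed a sign drops a line from the mean of the others.

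Replicate numbers did not pair the libraries across lines: the correlations of their differences were -0.016 to 0.046. With the replicate block, which leaves out AGS, 1434 genes marked MCF10A, against 1554 in the same libraries without the block, 1730 without AGS and 921 as reported.

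With genes of similar length in both annotations alone, which tests fewer genes, 2648, 3365, 2155, 2951 and 2276 genes were called and 413, 1169, 490, 787 and 258 marked A2058, HCT116, AGS, A2780 and MCF10A. At a log2 fold of at least 2, 2076 genes marked HCT116, 1085 AGS, 1560 A2780 and 533 MCF10A. Chosen after the data were seen, the GC and length correction gave 2599 in HCT116, and leaving out HCT116 gave 3072 in AGS and 1536 in MCF10A. Leaving out each library in turn gave 9310 to 12232 called genes in A2058, 12114 to 13373 in HCT116, 8304 to 11120 in AGS, 8460 to 12579 in A2780 and 6729 to 11446 in MCF10A, and 1259 to 1867, 3601 to 5747, 1690 to 2166, 1926 to 3272 and 728 to 1730 marking genes. Beyond the fewer lines or libraries, the cause was not tested.

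Arm levels moved to 0.33 on 8q in A2058, 0.35 on 8q in HCT116 and 0.15 on 1q in MCF10A with the correction, and changed sign to -0.01 on 8q in HCT116 and 0.07 on 1q in A2780 at a mean CPM of at least 1. Genes without counts numbered 5 in A2058, 26 in HCT116, 69 in AGS, 18 in A2780 and 5 in MCF10A at 0 counts. They numbered 39, 93, 231, 147 and 28 in the 5 lines when 1 CPM elsewhere was enough. RLE size factors moved the median over all genes from 0.219 to 0.116 in A2058, from -0.365 to -0.091 in HCT116 and from 0.131 to 0.023 in MCF10A.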
